A study of Mus musculus with 6 samples.

Results

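The cells described here are the cone photoreceptor precursors of the embryonic mouse retina, the cells that the authors' deposited cell table labels as cones. They number 3292 of the 67050 cells in 6 single-cell RNA-seq libraries taken at embryonic day 14 (E14). The study compared retinas that lack the neurogenic transcription factor Atoh7, the pro-apoptotic gene Bax, or both. Each of 3 groups has 2 libraries. In the first, Bax was heterozygous (Bax het) and Atoh7 null. In the second, called Bax null, the library titles name no change of Atoh7. In the third, the double null, both genes were labelled null. Every animal carried at least 1 mutant Bax allele, and no group with both genes intact was analysed here. Nothing in the labels says that the 2 libraries of a group came from separate animals or litters, so p-values measure the spread between libraries, which may be technical. The labels name neither the kind of allele nor the way in which embryos were pooled. The library is the replicate throughout: the unique molecular identifiers (UMIs, 1 per captured RNA molecule) of all cones of a library were summed, and cells were never treated as replicates.

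Cones are the photoreceptors of daylight and colour vision, and in the mouse they leave the cell cycle before birth, alongside ganglion, horizontal and amacrine cells. Otx2 opens the photoreceptor path and Crx maintains it, Prdm1 (also called Blimp1) holds bipolar genes down in young photoreceptors, and Thrb and Rxrg encode nuclear receptors that control which opsin a cone makes. Phototransduction runs from an opsin through the G protein transducin to a phosphodiesterase and a cyclic-nucleotide-gated channel, and most of these parts are switched on only later. Atoh7 makes progenitors competent to become ganglion cells, and Bax carries out the death of many neurons that are born in excess.

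The libraries labelled Bax null stood apart from the other 4. Their cones had 3502 and 3854 UMIs per cell at the median, against 1583 and 1964.5 in the Bax heterozygous Atoh7 null libraries and 1165 and 1483 in the Bax null Atoh7 null libraries. Mitochondrial RNA made up 4.07% and 4.17% of their cone UMIs and 1.05% to 1.12% elsewhere. The summed cone counts were closer, at 890484 to 1384550 UMIs per library. Several widely expressed genes were almost missing outside the Bax null libraries. Sumo2, which encodes a protein modifier, stood at 1621 and 1542 CPM in Bax null cones (CPM are UMIs scaled to a class total of 1000000 in each library) and at 0.687 to 1.94 CPM in the other 4 libraries. Actg1, cytoplasmic gamma-actin, stood at 2471 and 2360 CPM against 8.50 to 15.3 CPM. Such differences, shared by all cells of a library, cannot be told apart from genotype in any comparison with the Bax null group. For that reason each comparison in cones is followed by the difference between the changes in cones and progenitors of the same libraries. A factor that acts by the same fold in both cell classes cancels there, and an unequal one does not. With the double null set against Bax null, Actg1 kept a log2 difference of -0.92 (adjusted p = 0.00617, edgeR's interaction test). Sumo2 differed by 0.31 and did not pass (adjusted p = 0.893). How much of a library-wide difference remains in other genes was not tested.

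A further feature concerns the Bax null Atoh7 null pair. These 2 libraries shared 2596 cell barcodes, 17.6% and 22.0% of their cells, and 89.4% of the shared barcodes had the same cell type in both. The other 14 pairs of libraries shared 126 to 223 barcodes, of which 34.3% to 46.0% had the same type. Of the cones, 68 and 67 in the 2 libraries had a shared barcode, and 54 barcodes were a cone in both. Whether the same cells were sequenced in both or reads passed from one library to the other cannot be told apart, so the 2 libraries may not be independent. Results are given with these cells, and the values without them stand beside those they change.

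The label was checked against 9 cone markers: Crx, Otx2, Thrb, Gngt2, Prdm1, Rxrg, Neurod1, Gnb3 and Pde6h. For 8 of the 9, cones had the highest level of the 5 cell classes in 6 of 6 libraries. Levels here are CPM of the class total in a library. Gngt2, the gamma subunit of cone transducin, ranged over libraries from 766 to 1619 CPM in cones and reached at most 25.4 CPM in any other class. Crx ranged from 266 to 430 CPM against at most 20.2 CPM. Both were thus nearly limited to the labelled cells. Thrb ranged from 222 to 465 CPM with at most 28.7 CPM elsewhere, and Prdm1 from 246 to 434 CPM with at most 53.6 CPM elsewhere. Otx2 and Neurod1 were less restricted, because neurogenic cells also carried them. Otx2 ranged from 1091 to 1690 CPM in cones and reached 361 CPM in neurogenic cells, and Neurod1 ranged from 1129 to 1877 CPM and reached 847 CPM there. Pde6h, the inhibitory subunit of cone phosphodiesterase, had 0 UMIs among 7348133 cone UMIs, which allows a level of up to 0.408 CPM.

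At the level of single cells, 96.5% to 99.7% of cones per library held at least 1 UMI of Crx, Otx2, Thrb, Gngt2 or Prdm1. The same held for 34.5% to 42.5% of neurogenic cells and 10.7% to 13.8% of ganglion cells. When each cell was reduced to 1000 UMIs, the shares became 90.0% to 92.9% in cones. They became 16.3% to 26.6% in neurogenic cells and 2.48% to 6.95% in ganglion cells. Left out as too shallow were 258 cones, 486 neurogenic cells and 160 ganglion cells. The median depth was 1165 to 3854 UMIs in cones, 1532 to 7142 UMIs in neurogenic cells and 1834 to 6683 UMIs in ganglion cells. Cones were thus the shallowest of these classes. Thinned shares were 65.5% to 76.7% of cones for Otx2, 36.5% to 56.3% for Gngt2 and 23.4% to 35.4% for Crx.

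Markers of the other retinal classes were lower in cones than in those classes, but not at 0. Summed over each fixed list, ganglion cell markers came to 247 to 373 CPM in cones against 2876 to 7553 CPM in ganglion cells, and progenitor markers to 497 to 1333 CPM against 6065 to 8459 CPM in progenitors. Neurogenic markers came to 763 to 1010 CPM against 1798 to 4392 CPM in neurogenic cells, and amacrine and horizontal markers to 436 to 734 CPM against 2250 to 3600 CPM in the cells labelled horizontal. Rod markers came to 29.3 to 61.8 CPM, bipolar markers to 0 to 4.33 CPM with Vsx1 at 0 in every library, and mesenchyme markers to 0 to 1.75 CPM with Col3a1 at 0. The labelled cells therefore carried cone markers with little from rods or bipolar cells. Red blood cell markers, the haemoglobin genes, summed to 721 and 602 CPM in Bax null cones and to 11.2 to 209.5 CPM in the other libraries.

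A set of genes separated cones from the neurogenic cells that precede them. The rule was a CPM at least 4-fold that of neurogenic cells in each of the 6 libraries (with 1 CPM added to both) and a mean of at least 50 CPM in cones, and 98 genes met it. Because the cell types came from clusters of the same cells, this set is a description and carries no test. Its leaders included genes of the photoreceptor signalling chain. Gngt2 led, at a median of 1388 CPM over libraries. Pdc, which encodes the transducin-binding protein phosducin, followed at 338 CPM. Lypd1, a small lipid-anchored surface protein, stood at 271 CPM and Rbp4, the retinol carrier, at 221 CPM. Parts of the light response that the cones already carried included Gnb3, the beta subunit of cone transducin, at 110 to 291 CPM, Gnat2, its alpha subunit, at 47.1 to 133 CPM, and Cngb3, the beta subunit of the cone channel, at 60.2 to 176 CPM. Transcription factors among the first 25 genes were Crx, Rxrg (104 to 192 CPM), Irx6 (50.8 to 153 CPM), Lhx4 (69.6 to 118 CPM) and Thrb.

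The edge of the rule leaves the photoreceptor factor Otx2 just outside. The last genes that met it were Celf3, Ormdl3 and Lgmn, with a lowest log2 ratio of 2.002, 2.01 and 2.03, and the first that missed it were Otx2 and Gamt at 1.99 and Tpd52 at 1.97. Otx2 missed the rule because neurogenic cells already express it. The summed level of the 25 leading genes was 4580 to 6149 CPM in cones, 32.1 to 94.9 CPM in neurogenic cells and 15.4 to 48.9 CPM in progenitors. The other postmitotic classes were higher, with 294 to 422 CPM in ganglion cells and 369 to 542 CPM in the cells labelled as horizontal cells. Among the 98 genes, the highest of the other 4 classes was the horizontal cells for 50 and the ganglion cells for 41. Some members were higher there than in cones, such as Celf3 with a median of 215.5 CPM in horizontal cells and 146.6 CPM in cones.

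Of the 25 leading genes 16 matched a RefSeq start window, and 4 of these held the letters marked below. The start regions of 3 of these 4 are printed, so each shows a match by selection. The regions belong to the genes of a photoreceptor transcription factor, a part of the light response and a hormone receptor. Each is the RefSeq window of 300 bases, from 250 before to 50 after the transcription start, in GRCm38.p6 and read 5′ to 3′ on the gene's strand: Crx from chr7:15879906-15880205 (minus strand), Gnat2 from chr3:108092816-108093115 (plus strand) and Thrb from chr14:17660710-17661009 (plus strand). Capitals mark TAATCC, the core bound by homeodomain proteins of the Otx and Crx type, or its reverse complement GGATTA.
Crx: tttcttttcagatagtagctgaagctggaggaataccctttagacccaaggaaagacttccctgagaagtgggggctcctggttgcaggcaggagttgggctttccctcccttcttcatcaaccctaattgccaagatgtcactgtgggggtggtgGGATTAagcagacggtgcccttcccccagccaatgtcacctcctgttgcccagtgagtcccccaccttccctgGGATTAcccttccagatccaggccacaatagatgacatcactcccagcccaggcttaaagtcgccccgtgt
Gnat2: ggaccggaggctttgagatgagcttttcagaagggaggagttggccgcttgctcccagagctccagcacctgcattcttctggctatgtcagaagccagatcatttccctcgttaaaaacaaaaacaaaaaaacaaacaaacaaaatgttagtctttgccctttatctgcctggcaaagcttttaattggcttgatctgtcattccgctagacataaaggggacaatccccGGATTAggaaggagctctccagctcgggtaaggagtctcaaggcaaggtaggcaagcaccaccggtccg
Thrb: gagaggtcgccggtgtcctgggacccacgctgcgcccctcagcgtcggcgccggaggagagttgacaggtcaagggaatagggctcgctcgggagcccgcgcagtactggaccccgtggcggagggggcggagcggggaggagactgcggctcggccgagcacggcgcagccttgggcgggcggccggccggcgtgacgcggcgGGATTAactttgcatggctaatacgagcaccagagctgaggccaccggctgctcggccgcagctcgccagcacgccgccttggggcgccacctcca
All the matches are in the GGATTA orientation. In Crx they begin 94 and 21 bases before the start, in Gnat2 19 bases before it and in Thrb 46 bases before it. Of all RefSeq promoter windows of this length, 7.16% (1935 of 27025) hold the letters on either strand. Only 68 of the 98 genes matched a window, under 80%, so a comparison of the set with all genes is void. A match describes these letters and says nothing of binding. Counts from 3′ ends do not show which start of a gene cones use, so use of these windows in cones was not tested.

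Much of the light response was still silent. Of 23 genes listed for cone phototransduction, 6 had 0 UMIs in the cones of every library and 8 passed the filter on low counts. Opn1mw, the middle-wavelength opsin, had 0 UMIs in all 6 libraries. Opn1sw, the short-wavelength opsin, had 1 to 7 UMIs per library, and Arr3, cone arrestin, had 1 UMI in all. Rod genes were equally scarce: Nr2e3, a rod factor, had 1 UMI in all. Nrl, the factor that directs photoreceptors towards the rod fate, was present at 36.4 to 52.0 CPM (scaled as described below). At E14 these cells thus held the G protein subunits and channel subunit named above with almost no visual pigment RNA.

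The authors' clustering divides the cones into 5 clusters, numbered 98, 18, 15, 21 and 82, of 435, 771, 799, 773 and 514 cells. They are described here in the order of their Gngt2 level, with no test, because the clusters were made from the same cells. Over the 6 libraries the median Gngt2 level was 9.30 CPM in cluster 98, 254 CPM in cluster 18, 1257 CPM in cluster 15, 3104 CPM in cluster 21 and 3007 CPM in cluster 82. The order of clusters 98, 18 and 15 was the same in 6 of 6 libraries, and clusters 21 and 82 both lay above cluster 15 in 6 of 6. Pdc and Rbp4 followed the same course, from 0 CPM for both in cluster 98 to 868 and 619 CPM in cluster 21. Otx2 and Thrb were already present in cluster 98, at 908 and 109 CPM, and stood at 1449 and 568 CPM in cluster 21.

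Genes of the preceding neurogenic stage were highest in cluster 98. Neurog2, a proneural factor of cells leaving the cycle, had a median of 137 CPM in cluster 98 and 14.96 CPM in cluster 82. Hes6, another gene of newly committed neurons, stood at 1148 CPM in cluster 98 and 306 CPM in cluster 21, and Rorb, a nuclear receptor of early photoreceptors, at 1630 and 499 CPM. Prdm1 was nearly flat, with medians from 221 to 327 CPM over the 5 clusters. Cluster 21 was led by Chac1, Asns, Atf3 and Slc7a3, genes of the response to amino acid shortage and other stress, and Chac1 stood there at 78.6 CPM against at most 6.13 CPM in the other clusters. Cluster 82 was led by Pcp4, Gas2, Tulp1 and Pdc. Cluster 15 was led by Isl1, a factor of ganglion and other inner retinal neurons, at a median of 68.0 CPM, and its leading 10 genes also held the neurofilament genes Nefl and Nefm and the progenitor genes Hes1, Ccnd1, Fgf15, Id3 and Zfp36l1.

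**Figure D1:**
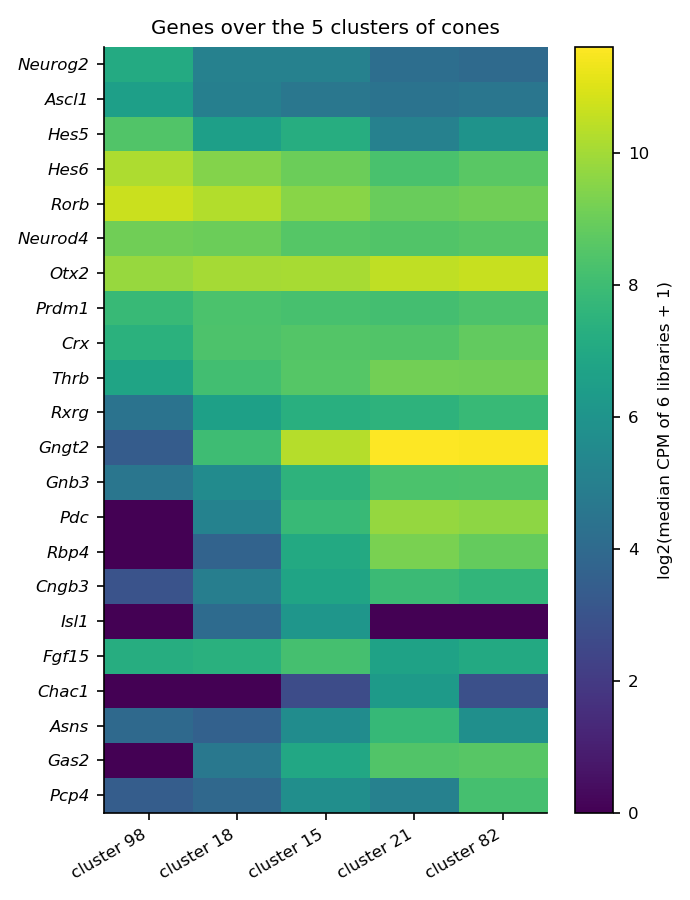
Heat map of selected genes (rows) over the authors' 5 clusters of cones (columns); colour gives log2 of the median CPM of the 6 libraries plus 1, in CPM of the cluster's total. Gngt2, Pdc and Rbp4 are lowest in cluster 98 and highest in clusters 21 and 82, and Neurog2, Hes6 and Rorb are highest in cluster 98.

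All 5 clusters were present in every library. Cluster 98 made up 13.7% and 15.1% of cones in the Bax heterozygous Atoh7 null libraries, 8.46% and 11.7% in the Bax null libraries and 14.5% and 12.2% in the Bax null Atoh7 null libraries. Cluster 18 made up 24.7% and 24.8%, 31.4% and 25.3%, and 21.5% and 18.3% in the same order. The Bax null libraries were thus lowest for cluster 98 and highest for cluster 18, with gaps no wider than those within a group, and since the clustering used genes that differ between the libraries, no test was made.

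Cones took up a smaller share of the Bax null libraries. They made up 3.22% and 2.77% of all cells there (95% Wilson intervals 2.90 to 3.58% and 2.46 to 3.13%), against 5.55% and 6.43% with Bax heterozygous and Atoh7 null (5.11 to 6.03% and 5.998 to 6.90%) and 5.42% in both libraries with both genes null (5.07 to 5.80% and 5.03 to 5.85%). Both Bax null libraries lay below the other 4, and the intervals cover counting error only. The means were 2.998% ± 0.319 (SD, n = 2), 5.99% ± 0.626 and 5.42% ± 0.000384. In edgeR's quasi-likelihood test on cell numbers, adjusted over the 5 cell types, the share with both genes null was higher than with Bax null by 0.85 on the log2 scale (adjusted p = 9.44e-05) and the Bax heterozygous Atoh7 null share was higher than with Bax null by 0.9985 (adjusted p = 1.78e-05). Between the groups that both lack Atoh7 the difference was -0.15 (adjusted p = 0.795).

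Shares are relative, and ganglion cells are fewer in retinas without Atoh7. Without ganglion cells in the denominator the cone share was 3.90% and 3.34% in the Bax null libraries, 5.96% and 7.09% in the Bax heterozygous Atoh7 null libraries and 5.88% and 6.003% in the Bax null Atoh7 null libraries. The difference from Bax null was then 0.71 (adjusted p = 0.000658) with both genes null and 0.85 (adjusted p = 0.00014) with Bax heterozygous. Set against their presumed precursors, there were 19.9 and 15.1 cones per 100 neurogenic cells in the Bax null libraries, 28.4 and 30.5 in the Bax heterozygous Atoh7 null libraries and 29.2 and 25.8 in the Bax null Atoh7 null libraries. The same order held on all of these denominators. Counted among cones and neurogenic cells only, the differences from Bax null were 0.54 (adjusted p = 0.0122) and 0.62 (adjusted p = 0.00727). With the barcodes shared by the Bax null Atoh7 null libraries left out, their difference from Bax null was 1.03 (adjusted p = 2.27e-05). Whether the deeper sequencing of the Bax null cells moved cells between the labelled types was not tested.

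**Figure D2:**
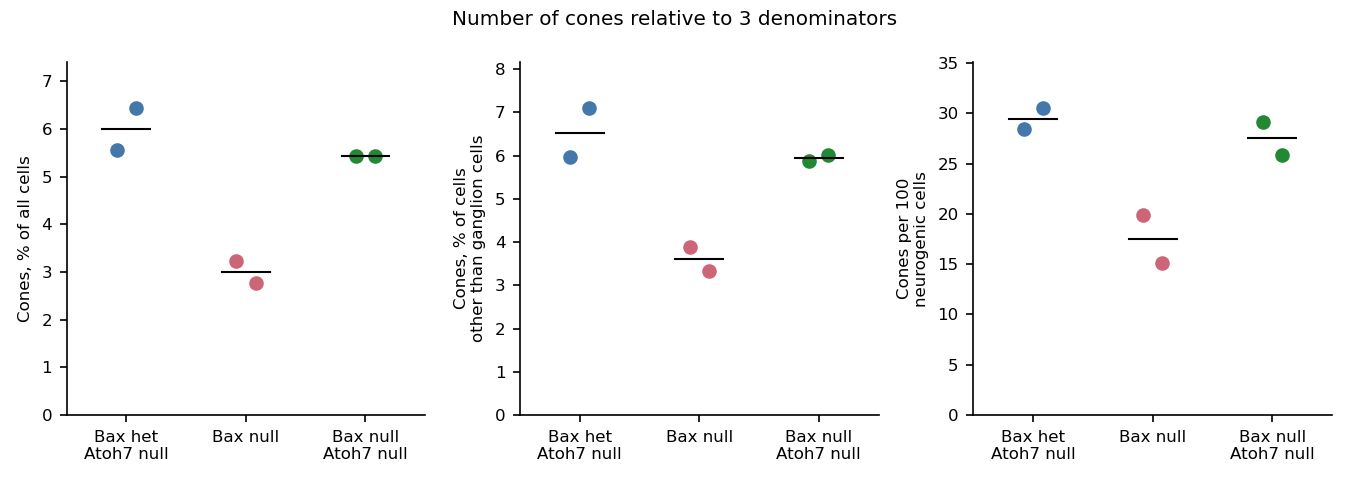
Cones as a percentage of all cells, as a percentage of cells other than ganglion cells, and per 100 neurogenic cells, for each library (points) with the group mean (line). The 2 Bax null libraries lie below the other 4 in each panel, for example 2.77% and 3.22% of all cells against 5.42% to 6.43%.

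The first comparison of gene levels asked what the loss of Atoh7 goes with in cones when Bax is also absent: Bax null Atoh7 null against Bax null. From here on CPM are scaled between libraries by edgeR's TMM factors, computed from a trimmed mean over genes. Of 9421 genes tested, 2649 passed at an adjusted p under 0.05 (28.1%), 1179 of them higher (12.5%) and 1470 lower (15.6%) with both genes null. Leaving out a Bax null library, replicate 1 or 2, left 1634 or 1583 genes. With no scaling beyond the cone total the split was 4161 higher and 488 lower, as the median of all genes then moved from 0.04 to 0.59, so directions below are relative to the TMM centre. Among the 98 genes of the cone programme 19 were higher and 20 lower, 39.8% against that background of 28.1%, with a median log2 difference of 0.03 against 0.04 for all genes. Within-library differences between cones and progenitors passed for 646 of 13168 genes (4.91%), 402 higher (3.05%) and 244 lower (1.85%). Without the shared barcodes 414 passed. In this comparison within libraries, the 25 leading programme genes were at traces in progenitors. They summed there to 19.4 and 15.4 CPM of the progenitor total with Bax null. With both genes null they summed to 48.9 and 37.4 CPM, and the part of these traces in the programme counts was not tested. The programme counted 5 higher and 30 lower in that comparison (35.7%), with a median of -0.47 against 0.12 for all genes; without Bax null Atoh7 null replicate 1 it counted 6 higher and 12 lower.

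Among the photoreceptor transcription factors 2 of 28 tested were higher and 5 lower, where 12.5% of all genes were higher and 15.6% lower. The list had a median log2 difference of 0.005 against 0.04 for all genes. Prdm1 was lower. Its level was 551 and 483 CPM in Bax null cones, 255 and 230 CPM in Bax heterozygous Atoh7 null cones and 244 and 237 CPM with both genes null. The 4 libraries without Atoh7 lay close together at about the same level, well below both Bax null libraries. The log2 difference between double null and Bax null was -1.10 (SE 0.13, adjusted p = 1.39e-06), and between Bax heterozygous Atoh7 null and Bax null -1.09 (SE 0.13, adjusted p = 1.82e-06). Relative to progenitors of the same libraries, where Prdm1 was at 0.436 to 2.14 CPM, the differences were -1.70 (SE 0.29, adjusted p = 1.02e-05) and -1.96 (SE 0.28, adjusted p = 7.04e-08). Part of this larger size lies in the progenitors, where the trace of Prdm1 was lower in the Bax null libraries (0.933 and 0.436 CPM) than in the others (1.42 to 2.14 CPM); the part of free RNA in those traces was not tested. After thinning to 1000 UMIs, 36.2% and 31.0% of Bax null cones held a Prdm1 UMI, against 22.3% to 24.5% in the other 4 libraries (unthinned 76.7% and 72.4% against 29.95% to 44.6%). In 4 of the 5 clusters both Bax null libraries lay above the other 4, cluster 18 being the exception. In cluster 82 Prdm1 stood at 638 and 502 CPM of the cluster total in Bax null against 269 to 363 CPM elsewhere.

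Crx, Otx2 and Thrb did not pass in this comparison. Crx stood at 341 and 372.5 CPM with Bax null and at 332 and 362 CPM with both genes null, a log2 difference of -0.04 (SE 0.12, adjusted p = 0.826). Otx2 stood at 1385 and 1421 CPM against 1042 and 1422 CPM (-0.19, SE 0.16, adjusted p = 0.394). Thrb stood at 281 and 286 CPM against 304 and 356 CPM (0.21, SE 0.13, adjusted p = 0.242), and with no scaling it passed at 0.77. Their groups overlapped or nearly touched, unlike Prdm1. Crx did differ relative to progenitors (-1.07, SE 0.21, adjusted p = 0.000160), where it was at 0.924 and 1.79 CPM in Bax null libraries and 4.34 and 4.54 CPM with both genes null, and against neurogenic cells in place of progenitors that difference was -0.33 and did not pass.

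Other members of the list moved in both directions. Rorb stood at 1200 and 1275 CPM with Bax null and at 596 and 515 CPM with both genes null (-1.15, SE 0.15, adjusted p = 5.17e-06). Progenitors also had less, 637 and 567 CPM of the progenitor total against 768.6 and 846.5 CPM, and the difference between the 2 classes was -0.03 (adjusted p = 0.906). Neurod4, a proneural factor of young photoreceptors and other neurons, stood at 537 and 473 CPM against 350 and 361 CPM (-0.51, SE 0.14, adjusted p = 0.00961). That call was lost without the shared barcodes (-0.38, adjusted p = 0.0649), with no scaling (0.0479) and without Bax null replicate 1 (-0.41). Samd11, a transcriptional regulator of photoreceptors, stood at 51.0 and 52.6 CPM against 20.7 and 19.8 CPM (-1.34, SE 0.25, adjusted p = 0.000461). Neurod1, another proneural factor, stood at 1602 and 1444 CPM against 1127 and 1342 CPM and did not pass in cones (-0.30), while its change relative to progenitors passed (-1.02, SE 0.10, adjusted p = 6.46e-15). Rxrg (125 to 162 CPM over all libraries) and Lhx4 (65.2 to 99.2 CPM) passed in no comparison of groups.

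Of the 8 phototransduction genes tested, 2 were lower and 1 higher, where 15.6% of all genes were lower and 12.5% higher. Gngt2 had 1799 and 1931 CPM in the Bax null libraries, 1259 and 1517 CPM in the Bax heterozygous libraries and 835 and 644 CPM in the double null libraries. On this TMM scale the 3 groups did not overlap, with Bax null highest and the double null lowest. With no scaling the heterozygous group differed from Bax null by 0.03. Thinned to 1000 UMIs, 54.7% and 55.4% of heterozygous cones held a Gngt2 UMI and 55.8% and 56.3% of Bax null cones. The share was 44.5% and 36.5% in double null cones. The log2 difference of the double null from Bax null was -1.33 (SE 0.16, adjusted p = 2.64e-06), and relative to progenitors -1.96 (SE 0.20, adjusted p = 1.21e-13). Without Bax null Atoh7 null replicate 1 the latter was -0.80 and did not pass (adjusted p = 0.289). Pdc stood at 483 and 469 CPM with Bax null against 235 and 380 CPM (-0.65, SE 0.16, adjusted p = 0.00526), and was -0.08 and did not pass with no scaling. Relative to progenitors Pdc differed by -1.501 (SE 0.36, adjusted p = 0.00258), which did not pass without Bax null Atoh7 null replicate 1 (-0.71, adjusted p = 0.637). Cngb3 was higher, at 108 and 148 CPM against 76.5 and 94.1 CPM (0.57, SE 0.17, adjusted p = 0.0178). That call was lost in DESeq2 (adjusted p = 0.163), with cones under 1000 UMIs left out (0.31, adjusted p = 0.164), without Bax null Atoh7 null replicate 2 (0.35) and without Bax null replicate 1 (0.43). Gnb3 (140 and 151 against 160 and 245 CPM) and Gnat2 (59.8 and 79.5 against 69.3 and 112 CPM) did not pass.

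**Figure D3:**
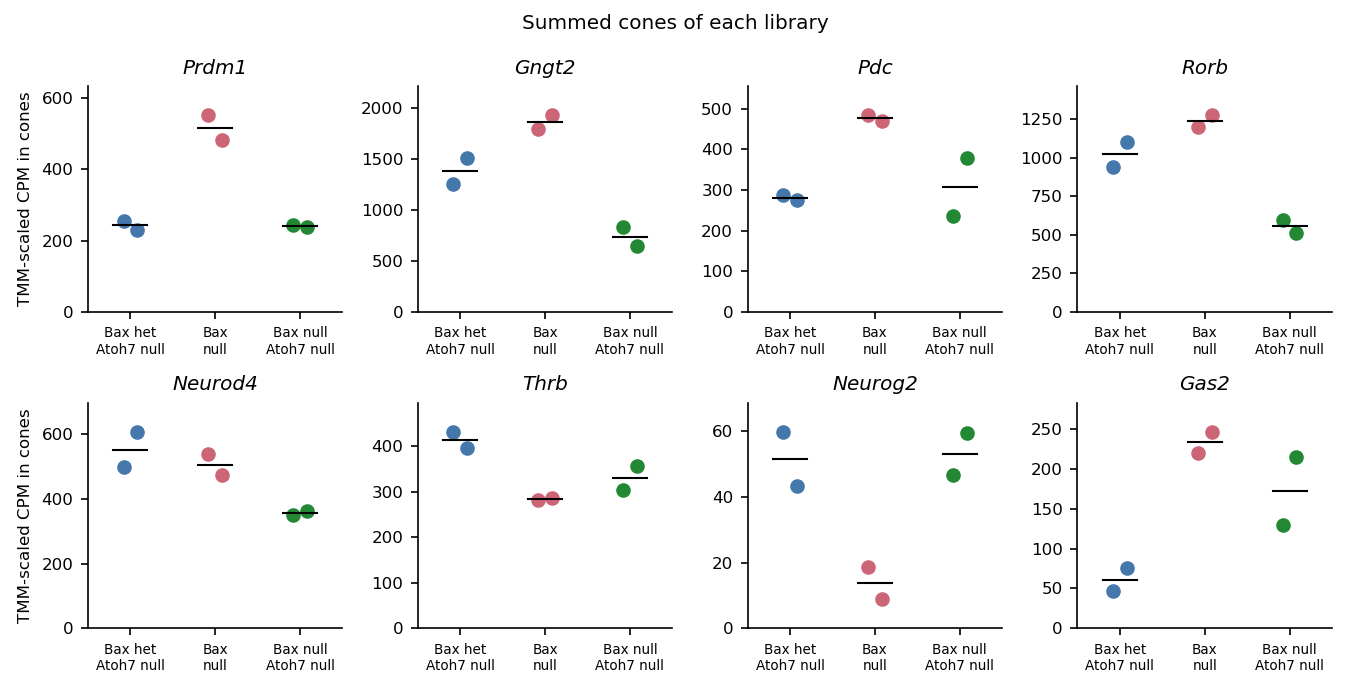
Level of 8 named genes in cones, in TMM-scaled CPM, for each library of the 3 groups (points) with the group mean (line). Prdm1 is high only in the 2 Bax null libraries (551 and 483 CPM). On this scale Gngt2 lies at 3 separate levels, from Bax null (1931 and 1799 CPM) to Bax null Atoh7 null (835 and 644 CPM).

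Calls in other photoreceptor lists stand beside the background of 28.1%, with 12.5% of all genes higher and 15.6% lower. Of 4 rod genes tested 1 was higher and 1 lower. Among 19 genes of the outer segment and cilium 1 was higher and 3 lower, among them Impg2, a proteoglycan of the matrix around photoreceptors (12.3 and 13.0 CPM against 45.1 and 41.4 CPM, -1.77, SE 0.28, adjusted p = 7.72e-05). Among 16 synapse genes 2 were higher and 0 lower. Stx3, the syntaxin of ribbon synapses, stood at 34.3 and 41.6 CPM against 12.7 and 4.48 CPM (2.06, SE 0.36, adjusted p = 0.000183).

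Of 23 proliferation genes tested 12 were higher and 0 lower, where 12.5% of all genes were higher and 15.6% lower. Their median was 1.03 against 0.04 for all genes. Relative to progenitors 10 of 24 were higher and 0 lower, where 3.05% of all genes were higher and 1.85% lower. Rrm2, a subunit of the enzyme that makes deoxyribonucleotides, stood at 28.5 and 31.2 CPM with both genes null against 7.84 and 5.60 CPM with Bax null (2.11, SE 0.35, adjusted p = 0.000142). Mcm6, part of the replicative helicase, stood at 42.7 and 35.0 CPM against 7.84 and 11.2 CPM (2.05, SE 0.31, adjusted p = 5.14e-05). Cdk1, the mitotic kinase, stood at 24.6 and 16.1 CPM against 7.84 and 5.60 CPM (1.61, SE 0.40, adjusted p = 0.00506). All of these levels are low. DESeq2 called 4 of 24 higher, and the count was 6 higher and 0 lower without the shared barcodes, 6 higher and 1 lower without Bax null Atoh7 null replicate 1, and 6 higher and 0 lower without either Bax null replicate. With cells of unusually high UMI number or several ganglion marker UMIs left out, 12 of 20 tested were higher.

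Of 18 progenitor genes 8 were higher and 2 lower, where 12.5% of all genes were higher and 15.6% lower. Relative to progenitors 11 were higher and 1 lower, where 3.05% of all genes were higher and 1.85% lower. Fgf15, a growth factor of progenitors, stood at 273 and 166 CPM with both genes null against 72.55 and 84.0 CPM with Bax null (1.52, SE 0.21, adjusted p = 1.87e-05). Dkk3, a secreted protein of the same cells, stood at 145 and 114 CPM against 34.3 and 33.6 CPM (1.95, SE 0.19, adjusted p = 1.44e-07). Sfrp2, a Wnt antagonist, stood at 370 and 276 CPM against 161 and 171 CPM (0.97, SE 0.15, adjusted p = 4.81e-05). The exceptions were Hes1, a Notch target, and Pax6, the eye field factor. Hes1 stood at 42.1 and 32.1 CPM against 139 and 178 CPM (-2.06, SE 0.18, adjusted p = 3.79e-08), but since it fell more in progenitors its difference relative to them was 1.30 (SE 0.17, adjusted p = 2.09e-09). Pax6 stood at 319 and 238 CPM against 644 and 766 CPM, a log2 difference of -1.33.

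The marker sums moved in the same way. The summed progenitor markers in cones were 497 and 574 CPM of the cone total for Bax null, 968 and 1148 CPM for Bax heterozygous Atoh7 null and 1333 and 1079 CPM in the double null libraries. Their part in the higher progenitor and proliferation genes was not tested. The Bax null libraries, which had the deepest cones, were lowest in this sum.

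Among 22 neurogenic genes 8 were higher and 4 lower, where 12.5% of all genes were higher and 15.6% lower. Neurog2 stood at 46.6 and 59.5 CPM with both genes null, 59.8 and 43.3 CPM with Bax heterozygous and 18.6 and 8.96 CPM with Bax null. The Bax null libraries lay below the others, with a log2 difference of 1.88 (SE 0.31, adjusted p = 0.000106) for the double null and 1.86 (SE 0.30, adjusted p = 0.000134) for the Bax heterozygous group. Relative to progenitors it differed by 1.496 (SE 0.29, adjusted p = 0.000133), though against neurogenic cells the difference of 0.83 did not pass (adjusted p = 0.0819). Sox4 and Sox11, related factors of newborn neurons, also rose. Sox4 stood at 1546 and 1778 CPM against 781 and 763 CPM (1.10, SE 0.15, adjusted p = 8.75e-06). Sox11 stood at 639 and 619 CPM against 374 and 343 CPM (0.81, SE 0.13, adjusted p = 0.000112). Atoh7 itself was counted at 16.7 and 17.9 CPM in Bax null cones and had 0 UMIs in the cones of the other 4 libraries (the depth allows up to 2.17 to 3.37 CPM of the cone total). The targeted gene was thus not detected in the 4 libraries labelled Atoh7 null.

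Of 15 ganglion cell genes 5 were lower and 1 higher in double null cones, where 15.6% of all genes were lower and 12.5% higher. Ebf1, a factor of ganglion and amacrine cells, stood at 172 and 175 CPM against 494 and 411 CPM (-1.39, SE 0.13, adjusted p = 8.83e-08), and relative to progenitors fell by 0.98 on the log2 scale. Isl1 stood at 9.07 and 28.3 CPM against 41.2 and 37.0 CPM (-1.19, SE 0.38, adjusted p = 0.0232). The Isl1 call was lost in DESeq2, with no scaling, without Bax null Atoh7 null replicate 1 and without Bax null replicate 1 or 2. When cones with high UMI numbers or several ganglion marker UMIs were left out, 1 of 12 was lower and 1 higher. The summed ganglion markers in cones were 247 to 373 CPM over the libraries, and their part in these calls was not tested.

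Stress and metabolic lists held calls both ways. Of 25 death and stress genes 4 were higher and 4 lower, near the background of 28.1%. Atf4, the master factor of the response to amino acid shortage, stood at 249.98 and 236 CPM against 434 and 428 CPM (-0.82, SE 0.13, adjusted p = 8.37e-05), and its target Chac1 at 16.2 and 10.4 CPM against 26.5 and 31.4 CPM (-1.06, SE 0.32, adjusted p = 0.0190). Chac1 is the gene that marks cluster 21, and its call was lost without either Bax null replicate and in DESeq2. Of 20 hypoxia and glycolysis genes 5 were higher and 5 lower, against the same background. Slc2a1, the glucose transporter, stood at 128 and 81.2 CPM against 26.5 and 29.1 CPM (1.95, SE 0.23, adjusted p = 2.34e-06). Progenitors also had less Slc2a1 with Bax null, 95.9 and 92.85 CPM of the progenitor total against 473 and 555 CPM with both genes null. Its difference relative to progenitors was 0.24 and did not pass (adjusted p = 0.656). Ndufa4l2, a hypoxia-induced gene, stood at 38.2 and 17.0 CPM against 1.96 and 6.72 CPM (2.77, SE 0.51, adjusted p = 0.000341). Among the highest folds of all genes were Trim32, a ubiquitin ligase, at 46.6 and 53.9 CPM against 4.90 and 10.1 CPM (2.75, SE 0.34, adjusted p = 2.93e-06), and Wsb1, at 95.9 and 121 CPM against 26.5 and 28.0 CPM (1.97, SE 0.20, adjusted p = 3.01e-07). Both also lay lower in Bax null progenitors, Trim32 at 13.8 and 12.8 CPM of the progenitor total against 52.6 to 60.1 CPM and Wsb1 at 17.8 and 15.7 CPM against 72.0 to 110 CPM.

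The genes whose difference between the groups departed most from that in progenitors had varied roles. Islr2, a surface protein of growing axons, stood at similar levels in cones (51.0 and 53.8 CPM with Bax null, 58.3 and 60.5 CPM with both genes null) and its difference relative to progenitors was 2.04 (SE 0.43, adjusted p = 0.000417). Kcnab1, a potassium channel subunit, was higher in cones (65.4 and 100 CPM against 28.4 and 37.0 CPM) and differed by 1.96 (SE 0.30, adjusted p = 2.71e-07). Ppp1r14a, an inhibitor of protein phosphatase, was lower in cones (222 and 215 CPM against 400.0 and 392 CPM) and differed by -1.99 (SE 0.17, adjusted p = 2.68e-18). Pttg1, a regulator of chromosome separation in mitosis, differed by 1.67 (adjusted p = 2.32e-10). It did not pass in cones, at 52.9 and 56.0 CPM with Bax null and 44.0 and 49.1 CPM with both genes null. Progenitors had less of it with both genes null, 39.9 and 45.4 CPM of the progenitor total against 98.5 and 95.8 CPM. Ddit4, a stress-induced inhibitor of growth signalling, differed by -1.97 (adjusted p = 2.99e-18). In cones it was lower, at 78.4 and 95.4 CPM with both genes null against 127 and 120 CPM with Bax null (-0.53). Progenitors had more of it with both genes null, 47.2 and 50.5 CPM against 11.0 and 11.1 CPM. Both signs of this comparison thus include genes at traces of a few CPM in progenitors, such as Islr2 at 0.285 to 1.40 CPM in these 4 libraries.

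**Figure D4:**
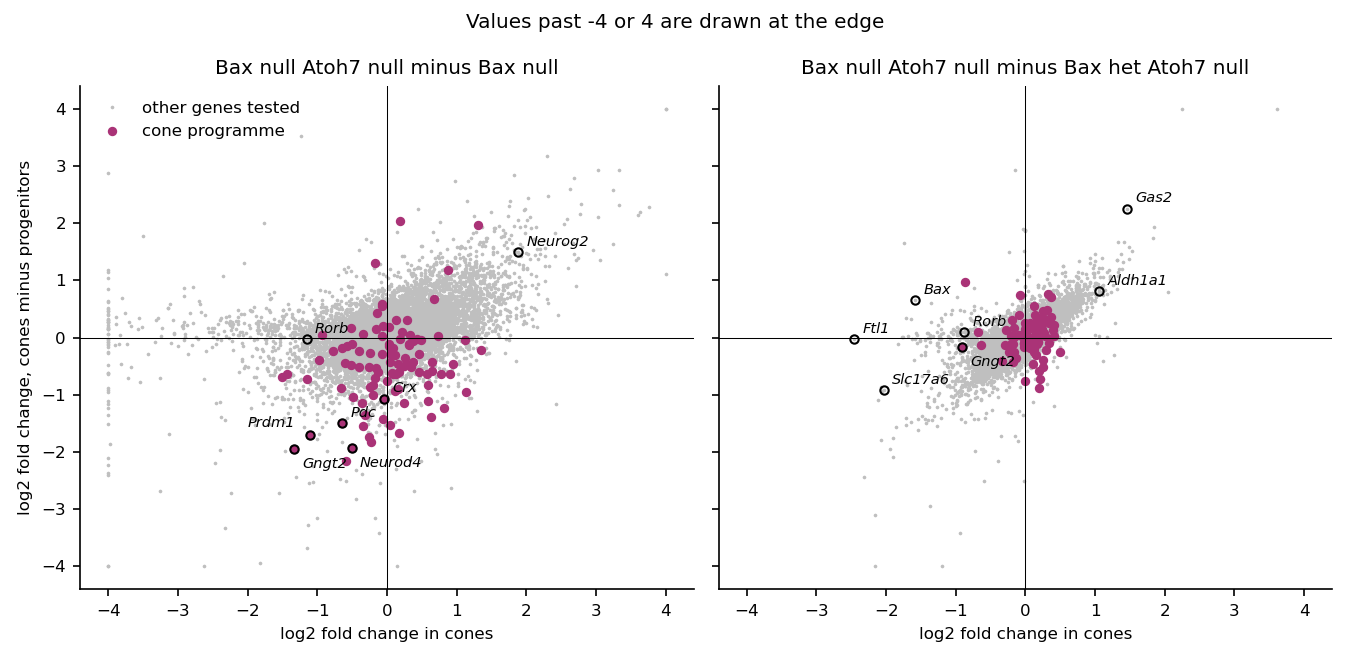
Log2 fold change of each gene in cones (horizontal axis) against its change in cones minus progenitors of the same libraries (vertical axis), for the double null against Bax null (left) and against Bax het Atoh7 null (right), with programme genes in colour, some named genes circled, and values past 4 drawn at the edge. Prdm1 and Gngt2 lie low on both axes on the left, at -1.10 and -1.70 and at -1.33 and -1.96, and Gas2 stands out on the right at 1.46 and 2.25.

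Bax heterozygous Atoh7 null against Bax null asked the same of cones that keep 1 Bax allele, and it shares the Bax null libraries with the comparison above. Of 9421 genes 2591 passed (27.5%), 1193 higher (12.7%) and 1398 lower (14.8%), and with no scaling the split was 3418 and 417. Without Bax null replicate 1 or 2, 1457 or 1405 genes passed. In the programme 15 genes were higher and 23 lower, 38.8% against that background of 27.5%. Relative to progenitors 698 genes passed (5.3%, with 3.11% higher and 2.19% lower), of which 6 higher and 28 lower were in the programme. The 25 leading programme genes summed to 47.8 and 40.3 CPM in progenitors with Bax heterozygous and 19.4 and 15.4 CPM with Bax null. The part of these traces in the counts was not tested. Prdm1, Neurog2 and Sox4 have been given above, Sox4 at 1576 and 1546 CPM (1.02, adjusted p = 3.06e-05). Rrm2 stood at 31.3 and 29.5 CPM (2.15) and Dkk3 at 132 and 148 CPM (2.04), and the proliferation list counted 10 higher and 0 lower. Pdc, at 286 and 275 CPM, was lower than with Bax null by -0.76 on the log2 scale (adjusted p = 0.00153). Neurod4 did not pass in cones, and relative to progenitors differed by -1.80.

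Thrb passed in this comparison of cones and in neither of the others. It stood at 431 and 396 CPM with Bax heterozygous and Atoh7 null against 281 and 286 CPM with Bax null (0.54, SE 0.13, adjusted p = 0.00361), and without Bax null replicate 1 or 2 it did not pass (adjusted p = 0.0694 and 0.0619). The double null libraries, at 304 and 356 CPM, lay between, and their difference from the Bax heterozygous group was -0.33 (adjusted p = 0.348). Thinned to 1000 UMIs, 36.8% and 34.2% of Bax heterozygous Atoh7 null cones held a Thrb UMI, 20.5% and 20.2% of Bax null cones and 29.2% and 31.4% of double null cones, against 1.14% to 2.88% of ganglion cells. Gngt2 was lower than with Bax null by 0.43 on the log2 scale in a call at the edge of the threshold (-0.43, SE 0.16, adjusted p = 0.0499), lost in DESeq2, without any 1 library of either group and in further settings. Relative to progenitors Gngt2 differed by -1.79 (SE 0.18, adjusted p = 3.01e-14).

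The third comparison, of the double null with the Bax heterozygous Atoh7 null group, concerns the second Bax allele in retinas that all lack Atoh7. It called 138 of 9421 genes (1.46%), 3 higher (0.0318%) and 135 lower (1.43%) in the double null. Without Bax heterozygous Atoh7 null replicate 2 it called 62, and without Bax null Atoh7 null replicate 1 it called 294 (16 higher). Without Bax null Atoh7 null replicate 2 it called 171, of which 41 were higher. Of the cone programme 4 genes were lower and 0 higher (4.08%): Gngt2, C1ql3, Neurod4 and Svip. Gngt2 differed by -0.91 (SE 0.16, adjusted p = 0.00298), not passing without Bax heterozygous Atoh7 null replicate 2 (-0.77, adjusted p = 0.0763). Rorb, at 941 and 1102 CPM against 596 and 515 CPM, differed by -0.88 (SE 0.15, adjusted p = 0.00164), and Neurod4, at 497 and 606 CPM against 350 and 361 CPM, by -0.64 (SE 0.14, adjusted p = 0.0167). Neurod4 did not pass without the shared barcodes (adjusted p = 0.144), with no scaling or with the 4 libraries fitted alone. Nor did Neurod4 pass without Bax heterozygous Atoh7 null replicate 2 (-0.49) or without Bax null replicate 1 or 2. Rorb did not pass without Bax heterozygous Atoh7 null replicate 2 (-0.76). C1ql3, a secreted synaptic protein, stood at 59.8 and 58.4 CPM against 33.7 and 30.2 CPM (-0.87, SE 0.19, adjusted p = 0.0178). Its call was lost in DESeq2 (adjusted p = 0.198), with no scaling, with the 4 libraries of the 2 groups fitted alone, without either heterozygous library and without Bax null Atoh7 null replicate 2. Prdm1 did not pass (-0.01, adjusted p = 0.990). Relative to progenitors the differences of Gngt2 (-0.16) and Rorb (0.09) did not pass, and 0 of the 98 programme genes did in edgeR (6 at an unadjusted p under 0.05) or in limma voom.

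Of 103 tested genes named as subunits of the respiratory chain or the ATP synthase 20 were lower and 0 higher. Of 100 named as ribosomal proteins, cytosolic or mitochondrial, 17 were lower and 0 higher. Among all genes tested 1.43% were lower and 0.0318% higher. The other 98 genes called lower were in neither class. Ndufa3, a subunit of complex I, differed by -1.63 (adjusted p = 2.89e-05), and Usmg5, of the ATP synthase, by -1.84 (adjusted p = 2.89e-05). Relative to progenitors of the same libraries they differed by -0.02 and -0.11, and neither passed. The longest annotated transcript had a median of 1697 bases for the genes called lower and 3394 bases for all genes tested. Genes of ribosomal proteins made up 13.9% of cone UMIs in Bax null Atoh7 null replicate 2 and 18.4% in replicate 1, against 18.03% and 17.5% in the Bax heterozygous group. Without Bax null Atoh7 null replicate 2 the calls were 130 lower and 41 higher, and Ndufa3 differed by -1.33 and Usmg5 by -1.498. Without replicate 1 they differed by -2.13 and -2.37.

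Bax and its neighbours on chromosome 7 were among the genes called. Bax (chr7:45461697-45466898 in GRCm38) stood at 190 and 135 CPM in Bax heterozygous Atoh7 null cones, 75.1 and 26.45 CPM with both genes null and 46.8 CPM ± 4.47 (SD, n = 2) with Bax null. All 4 libraries labelled Bax null lay below both heterozygous libraries, with a log2 difference of -1.58 (SE 0.25, adjusted p = 0.00100) for the double null. DESeq2 did not call it (adjusted p = 0.162). Bax RNA stayed countable in the nulls, and the sources used here do not say whether the counted 3′ ends lie in the deleted part. Ftl1, the ferritin light chain gene next to Bax (chr7:45457944-45459884), stood at 2371 and 1737 CPM, 687 and 40.6 CPM, and 148 and 255 CPM in the same order (-2.46, SE 0.55, adjusted p = 0.0208). The double null replicates lay far apart in this gene. Its call was lost in DESeq2, with the 4 libraries fitted alone and without Bax null replicate 1 or 2. Without double null replicate 1 or 2 the difference was -5.65 or -1.58. Slc17a6, a vesicular glutamate transporter 6.16 Mb from Bax (chr7:51622006-51671119), stood at 103.5 and 62.5 CPM, 28.5 and 8.50 CPM, and 12.7 and 6.72 CPM (-2.03, SE 0.31, adjusted p = 0.000936). Svip, a small inhibitor of protein degradation at the endoplasmic reticulum (chr7:51997171-52006018), stood at 95.45 and 85.85 CPM against 56.3 and 56.7 CPM (-0.68, SE 0.16, adjusted p = 0.0252). Its call was lost in DESeq2 (adjusted p = 0.380), with no scaling, with the 4 libraries fitted alone, without the shared barcodes and without any 1 library other than Bax null Atoh7 null replicate 2. In all, 14 of the 138 called genes lie on chromosome 7 (10.1%), where 7.48% of the genes tested lie.

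Gas2 was the clearest gene to rise with the second Bax null allele. Gas2 (chr7:51862015-51994975) encodes a protein that links actin filaments to microtubules and is cleaved by caspases in dying cells. It stood at 46.6 and 75.55 CPM in Bax heterozygous Atoh7 null cones, 130 and 214 CPM with both genes null and 220.6 and 246 CPM with Bax null. The 4 libraries that lack both Bax alleles lay above the 2 heterozygous ones, with log2 differences of 1.46 for the double null (SE 0.21, adjusted p = 0.000609) and, for heterozygous against Bax null, -1.92 (SE 0.21, adjusted p = 1.03e-06). Progenitors went the other way, at 13.9 and 11.9 CPM with Bax heterozygous, 7.88 and 7.685 CPM with both genes null and 4.59 and 4.03 CPM with Bax null. The difference between the classes was 2.25 (SE 0.20, adjusted p = 1.06e-15) between the groups without Atoh7 and -2.91 (SE 0.20, adjusted p = 2.54e-24) for heterozygous against Bax null. Thinned to 1000 UMIs, 4.97% and 8.04% of heterozygous cones held a Gas2 UMI, 12.5% and 15.2% of double null cones and 17.1% and 18.02% of Bax null cones, against 0.296% to 0.604% of ganglion cells. Within cones Gas2 was highest in the clusters with most Gngt2, at a median of 349 CPM in cluster 21 and 381 CPM in cluster 82. In cluster 98 its median was 0 CPM. Gas2 lies 6.40 Mb from Bax, and no allele of a gene other than Bax and Atoh7 is given in the labels.

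The other genes to rise were Gsto1, a glutathione transferase, and Aldh1a1, the enzyme that makes retinoic acid in the dorsal retina. Gsto1 stood at 23.3 and 16.5 CPM against 40.15 and 47.2 CPM (1.12, SE 0.24, adjusted p = 0.0152). Its call was lost with likely doublets, the cones of high UMI number or several ganglion marker UMIs, left out (adjusted p = 0.0642), with the 4 libraries fitted alone (adjusted p = 0.0529) and without Bax heterozygous Atoh7 null replicate 2 (0.88, adjusted p = 0.281). Aldh1a1 stood at 48.1 and 29.5 CPM against 93.3 and 64.2 CPM (1.06, SE 0.23, adjusted p = 0.0167), with the groups apart but each library of a pair far from the other. Without the shared barcodes Aldh1a1 was at 0.69 and did not pass, nor did it in DESeq2, with likely doublets left out, with the 4 libraries fitted alone, or without Bax heterozygous Atoh7 null replicate 2 or Bax null Atoh7 null replicate 1. Relative to progenitors 2 genes passed in this comparison (0.0152% of 13168), Gas2 and Aldh1a1 (0.82, SE 0.17, adjusted p = 0.0248), and without the shared barcodes Aldh1a1 did not pass (0.61).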

How the data were processed

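Retinal cells of 6 libraries (3 groups of 2) were measured with the 10x Genomics 3′ chemistry, version 2, per the labels' protocols; the submitters' processing notes name Cell Ranger 1.2.1 and mm10. The authors deposited whole UMI counts per gene and cell, with no normalization, and a cell table with cell types, clusters and map coordinates of each cell (score values that the authors computed, not used here), from which the cones were taken as labelled. Cells of 2 further libraries in these tables were not used. How the authors treated doublets and filtered cells is not given in the sources used here.

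UMI counts were summed per library over cones and over each other class, 890484 to 1384550 UMIs for cones. Sums were tested with edgeR 4.0.16 in R 4.3.3 (quasi-likelihood F test, filterByExpr, TMM scaling, Benjamini-Hochberg adjustment over all genes tested, threshold 0.05), with all 6 libraries in 1 fit without a replicate block. The change in cones minus that in progenitors was the interaction of group and cell class with library as a block. Cell numbers per type were tested in the same way, each library scaled only by its number of cells. The 2 CPM scales are plain CPM of a class total and TMM-scaled CPM. With 2 libraries against 2, the smallest two-sided p of an exact permutation test is 0.333. Intervals are 95% Wilson intervals, a count of 0 was given a limit of 3 UMIs, and both cover counting error only. Thinned shares are the exact expectation for 1000 UMIs drawn from each cell. Alternatives were DESeq2 1.42.0, limma 3.58.1, other scalings and filters, a replicate block, a doublet rule (over 2 times the library's median cone UMIs, or at least 3 ganglion marker UMIs), cones under 1000 UMIs left out, thinned counts, and each library left out. Leaving out shared barcodes was added after seeing the data. The fits were tested on simulated data.

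Named genes are the list members, up to 8 called genes each way with the largest change in cones (6 each way relative to progenitors; mean of at least 50 CPM in the higher group, libraries of the groups apart) and the 25 leading programme genes. Mitochondrial, ribosomal protein and histone genes, predicted genes and pseudogenes were counted only as groups. Gsto1 and Svip, the neighbours of Bax and the genes discussed by cluster were chosen after their values were seen. Values of some listed genes are not reported here. The members, lists and comparisons were chosen with earlier results of these data known. Gene positions are from GENCODE release 21 for mouse (GRCm38).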

Additional observations from a re-analysis of the deposited data

Results flagged for a closer look

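For the genes below, the difference between groups was itself different in cones and in progenitors of the same libraries, by edgeR's interaction test with Benjamini-Hochberg adjustment. Values are log2 differences, cones minus progenitors.

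For the double null (Bax null Atoh7 null) against Bax null this held for 646 genes. It was negative for Chac1 (-2.25), Ppp1r14a (-1.99), Ddit4 (-1.97), Gngt2 (-1.96), Neurod4 (-1.93), Prdm1 (-1.70), Pdc (-1.501), Crx (-1.07), Neurod1 (-1.02) and Ebf1 (-0.98). It was positive for Islr2 (2.04), Kcnab1 (1.96), Rrm2 (1.72), Neurog2 (1.496), Fgf15 (1.46), Hes1 (1.30) and Dkk3 (1.27).

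Between Bax het Atoh7 null and Bax null it held for 698 genes, among them Gas2 (-2.91), Prdm1 (-1.96), Neurod4 (-1.80), Gngt2 (-1.79) and Neurog2 (1.43). The Bax null libraries enter both comparisons. In progenitors the cone genes Gngt2, Neurod4, Crx, Pdc and Prdm1 were at 0.334 to 7.49 CPM, lower in the Bax null libraries than in most of the others, and the part of these traces in the values was not tested.

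Between Bax null Atoh7 null and Bax het Atoh7 null it held for 2 genes, Gas2 (2.25) and Aldh1a1 (0.82).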

How the results depend on the processing

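The higher cone share in both groups without Atoh7 than in Bax null passed in every alternative run. Leaving out 1 library gave 0.75 to 0.97 on the log2 scale for Bax null Atoh7 null and 0.89 to 1.11 for Bax het Atoh7 null. Between those 2 groups it gave -0.25 to -0.03, and without the shared barcodes 0.0298 (adjusted p = 0.982). The numbers of genes called in cones were less stable. For Bax null Atoh7 null against Bax null, DESeq2 called 1105, no scaling 4649 (4161 higher and 488 lower), and leaving out 1 library 1583 to 2598. For Bax het Atoh7 null against Bax null, DESeq2 called 988, no scaling gave 3418 higher and 417 lower, and leaving out 1 library gave 1405 to 3086. For Bax null Atoh7 null against Bax het Atoh7 null, DESeq2 called 79, the 4 libraries alone 70, and leaving out 1 library 62 to 294. Relative to progenitors the counts were 424 with limma voom and 414 without shared barcodes for Bax null Atoh7 null against Bax null, 288 to 651 without 1 library, and with relative log expression scaling 240 higher and 319 lower. For the other 2 comparisons they were 1 with limma voom, 4 with no filter and 1 to 12 without 1 library, and 291 to 874 without 1 library, with 278 higher and 377 lower under that scaling. The programme held 176 genes against progenitors, 228 with no minimum CPM and 96 to 104 without 1 library.

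Signs turned for a few genes, most of them not called. With no scaling, Bax null Atoh7 null against Bax null gave 0.0479 for Neurod4, 0.51 for Crx, 0.37 for Otx2 and 0.26 for Neurod1, Bax null Atoh7 null against Bax het Atoh7 null gave 0.0895 for Prdm1, and Bax het Atoh7 null against Bax null gave 0.0296 for Gngt2. Crx also gave 0.0232 without shared barcodes, 0.0203 with thinned counts and -0.112 to 0.0252 without 1 library, and Otx2 -0.429 to 0.0225. Prdm1 between the groups without Atoh7 gave 0.00591 with doublets left out, 0.0689 without shared barcodes and -0.0858 to 0.0633 without 1 library. Relative to progenitors, leaving out 1 library turned Rorb (-0.0665 to 0.0151) and Thrb (-0.174 to 0.484) for Bax null Atoh7 null against Bax null, and Gngt2 (-0.562 to 0.990) against Bax het Atoh7 null, where Rorb was -0.0144 without shared barcodes. The cause was not tested. Over single genes, 719 other values kept sign and side of the threshold, 54 no longer passed, 1 newly passed and 11 turned; with 1 library left out these were 475, 51, 4 and 10.

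The labels give the groups the same replicate numbers, but same-numbered libraries did not deviate together (correlations of 0.00963, 0.0941 and -0.0229 over 9421 genes), so the numbers are taken as names. With the replicate number as a block the counts in cones were 2628, 144 and 2606, and the share differences 0.852, -0.145 and 0.9975. A median of 1165 to 3854 UMIs per cone limits what single cells show, and 2 libraries a group limit all tests.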

Other observations

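A few genes were counted almost only in the Bax null libraries. Gsg1, which encodes a membrane protein, stood at 113 and 136 CPM in the 2 Bax null libraries and had 0 UMIs in the cones of the other 4. In Bax null progenitors it was at 0.130 and 0.0770 CPM. Pgam1, a glycolytic enzyme, stood at 391 and 380 CPM in Bax null cones and at 0 to 1.46 CPM in the other cones, and in progenitors at 478 and 463 CPM against 1.54 to 1.89 CPM. Mpc1, the mitochondrial pyruvate carrier, stood at 140 and 131 CPM against 0 to 1.94 CPM in cones, and at 71.5 and 78.6 CPM in Bax null progenitors. The mitochondrially encoded genes were lower in the double null than in Bax null cones for 11 of 13, with a median of -4.45 on the log2 scale, and relative to progenitors their median was 0.05 with 0 called. Of 82 ribosomal protein genes 67 were lower and 1 higher, where 15.6% of all genes were lower and 12.5% higher. Relative to progenitors 36 of the 82 were higher and 0 lower, where 3.05% of all genes were higher and 1.85% lower. These values are given without an explanation.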
